A study of Mesocricetus auratus with 11 samples.

Results

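The short sequences of the hamster assembly that the deposited files name with the prefix APMT, here called contigs, carried 2310 of the 81297 CpGs that had at least 10 reads in all 11 libraries. These members were chosen by name and read count alone, with the strands of each CpG summed, and 78979 of the remaining CpGs lay on the long sequences named with the prefix KB, here called scaffolds. Comparisons of 2 groups used the CpGs with at least 10 reads in the libraries of those groups, which gave 4264 contig CpGs of 155920 for 5aCdR against vehicle and 2571 of 91277 for MT2 against primary cells. All 51214 contig CpGs listed in any library lay on 4449 contigs, and 4.51% of them reached 10 reads in every library, against 4.03% of scaffold CpGs.

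A draft genome assembly leaves behind short contigs that could not be joined to longer sequence, and such contigs are often rich in repeats or in sequence with near copies elsewhere, so that reads from several places can be assigned to the same contig. Methylation of cytosine at CpGs is copied to the new strand at each replication by the enzyme DNMT1. Sparse CpGs of a mammalian genome are mostly methylated and dense ones, as in CpG islands, mostly are not. Reduced representation bisulfite sequencing cuts DNA with an enzyme whose site holds a CpG, keeps the short fragments, and reads a methylated cytosine as C and an unmethylated one as T. The assay therefore samples a small, CpG-rich portion of each contig.

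All cells were female Syrian hamster fetal cells or derived from such cells. The 4 primary libraries came from separate stocks of untreated cells of fetuses at 13.5 days of gestation, a mixture of cell types whose parts cannot be told apart in bulk DNA. MT2 is a cell line grown from 1 colony morphologically transformed by benzo[a]pyrene at 5 µg/mL, at an estimated passage of 28. From 1 thawed MT2 stock, 4 wells received the vehicle, DMSO at 0.05%, and 3 wells analysed here received 5-aza-2'-deoxycytidine (5aCdR) at 5 µM for 48 h. 5aCdR is a cytosine analogue that is built into new DNA and traps DNMT1 there, so that methylation is lost as cells divide. The p-values within MT2 measure only the spread between wells of 1 stock, and a difference between MT2 and primary cells also holds the difference between a line from 1 colony in long culture and fresh mixed cells.

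Reads over CpGs numbered 17834610 to 46148127 per library, and 2.67% to 2.79% of them lay on contigs. All 3 5aCdR libraries had at least 36110136 reads, as did 1 vehicle library and 1 primary library. Reads are not counted by molecule, so depth overstates the precision of a level, and the spread between libraries is the error used throughout.

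Most contigs held few members, and their last listed positions were mostly low. Of the 940 contigs with a member in the 11-library set, 400 had 1 member, 258 had 2 and 282 had 3 or more, up to 20. The last listed position on a contig, a lower bound for its length, had a median of 2250 over all contigs listed and 3174 over those with members, and reached 41396. Contig edges were near: 5.97% of members lay within 250 bp of the contig's first base, against 0.135% of scaffold CpGs. Both strands of the CpG were listed for 64.2% of members and 66.4% of scaffold CpGs.

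Local CpG density was close to that of scaffolds. Density was counted as the covered CpGs within 250 bp on each side, the CpG itself included, and its median was 8 in both sets. CpGs with 1 to 4 such CpGs made up 31.0% of contig members and 29.99% of scaffold CpGs, and those with 30 or more made up 13.4% and 14.9%. Sequence beyond the end of a contig cannot be counted, so density near an edge is understated.

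Median reads per CpG were close on contigs and scaffolds. The median depth of a contig CpG was 62, 36, 33 and 59 reads in the 4 vehicle libraries, 75, 62 and 71 in the 5aCdR libraries, and 37, 36, 46 and 65 in the primary libraries. Scaffold CpGs weighted to the same density makeup had medians of 59, 33, 32 and 54, of 74, 59 and 68, and of 36, 36, 44 and 60 in the same order. The contig median was the higher in 10 of 11 libraries and equal in 1, by 1.05-fold on average (0.0674 ± 0.0419 on the log2 scale, SD, n = 11). Among CpGs with at least 20 reads in every library the log2 ratio was 0.00527. A read minimum chose these CpGs, so the ratio is a description and depends on that minimum. CpGs in the top 0.1% of coverage in a library made up 38 members, or 1.65%, against 2.07% of scaffold CpGs.

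The methylation level on contigs was higher than on scaffolds of the same CpG density in every library. Averaged over the 2310 members, the level was 44.0%, 44.1%, 43.9% and 44.4% in the primary libraries, 40.5%, 40.7%, 40.8% and 41.1% in the vehicle libraries, and 36.1%, 35% and 35.3% in the 5aCdR libraries. The 3 groups did not overlap. The group means were 44.1% ± 0.228 (SD, n = 4), 40.8% ± 0.227 (SD, n = 4) and 35.5% ± 0.555 (SD, n = 3). Density-weighted scaffold CpGs were at 41.3% ± 0.208, 38.3% ± 0.0780 and 33.3% ± 0.203 in the same groups. The contig excess was 2.51 percentage points, from 1.80 to 3.10 over the 11 libraries (exact sign-flip permutation test, two-sided, p = 0.000977, the smallest that 11 libraries allow). With each contig weighted equally it was 4.30 points. All libraries read the same CpGs, and the MT2 libraries are wells of 1 stock. The p-value therefore measures how repeatable the offset was between libraries, not the spread between contigs.

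**Figure D1:**
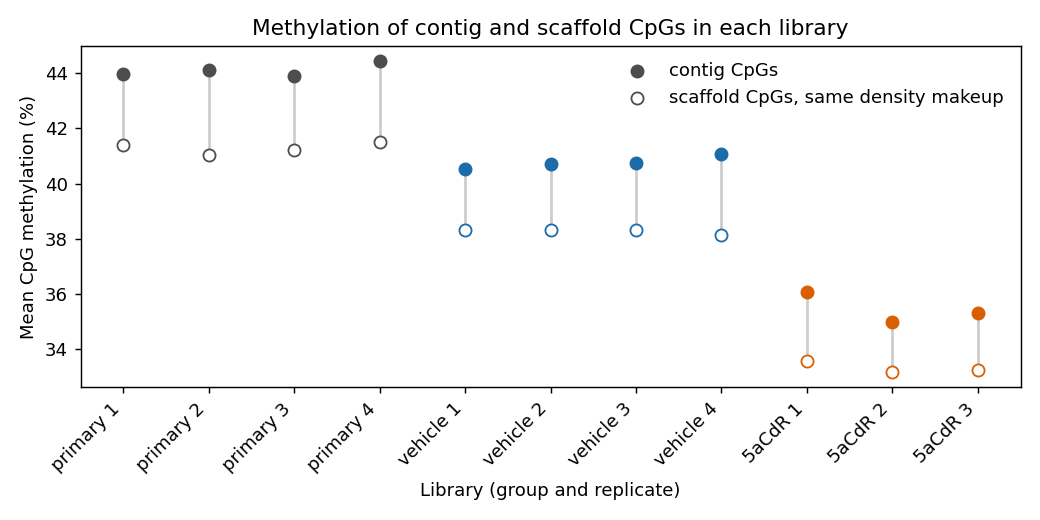
Mean CpG methylation in percent (y axis, not starting at 0) in each of the 11 libraries (x axis), for the 2310 contig CpGs (filled) and for scaffold CpGs weighted to the same density makeup (open), joined by a grey line. The contig value is the higher in every library, by 1.80 to 3.10 points, and both sets fall from primary to vehicle to 5aCdR.

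The excess came with more highly methylated CpGs. CpGs above 80% made up 27.2% of contig members on average over the 11 libraries and 24.2% of density-weighted scaffold CpGs, with the contig share higher in 11 of 11 libraries. CpGs below 20% made up 46.3% and 48.3%, with the contig share lower in all 11, and CpGs from 20% to 80% made up 26.5% and 27.5%, with the contig share higher in 1 of 11. The 3 differences had exact sign-flip permutation p-values of 0.00146, 0.00146 and 0.00195 after adjustment over the 3 classes. These p-values too measure repeatability between libraries on the same CpGs, not the spread between contigs.

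By density class the contigs followed the course of the scaffolds, with 1 class set apart. In primary cells contig CpGs with 1 to 4 covered CpGs were at 65.7% ± 0.450 (SD, n = 4), against 62.1% ± 0.201 on scaffolds. With 20 to 29 covered CpGs they were at 14.5% ± 0.669 (SD, n = 4), against 7.54% ± 0.165, and the same class was at 15.0% ± 0.521 against 9.89% ± 0.0902 with vehicle. With 10 to 19 covered CpGs the sets were close, at 34.3% ± 0.818 and 33.6% ± 0.352 in primary cells and at 33.6% ± 1.09 and 34.2% ± 0.118 with vehicle. With 30 or more, contigs were at 2.48% ± 0.251 and scaffolds at 2.15% ± 0.0735. The class of 20 to 29 held only 250 contig CpGs. APMT01237528.1, with 19 members and a median density of 28, was at 86.6% in primary cells. APMT01220402.1, with 7 members and a median density of 26, was at 99.6%. APMT01216494.1, with 6 members and a median density of 20, was at 90.8%. APMT01230961.1, APMT01206903.1 and APMT01217499.1, with median densities of 27, 22.5 and 28, were at 40.3%, 38.4% and 35.3%. Most other contigs of such median density were low. How far single contigs raised this class was not tested. These class values are a description, and the differences within classes were not tested.

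**Figure D2:**
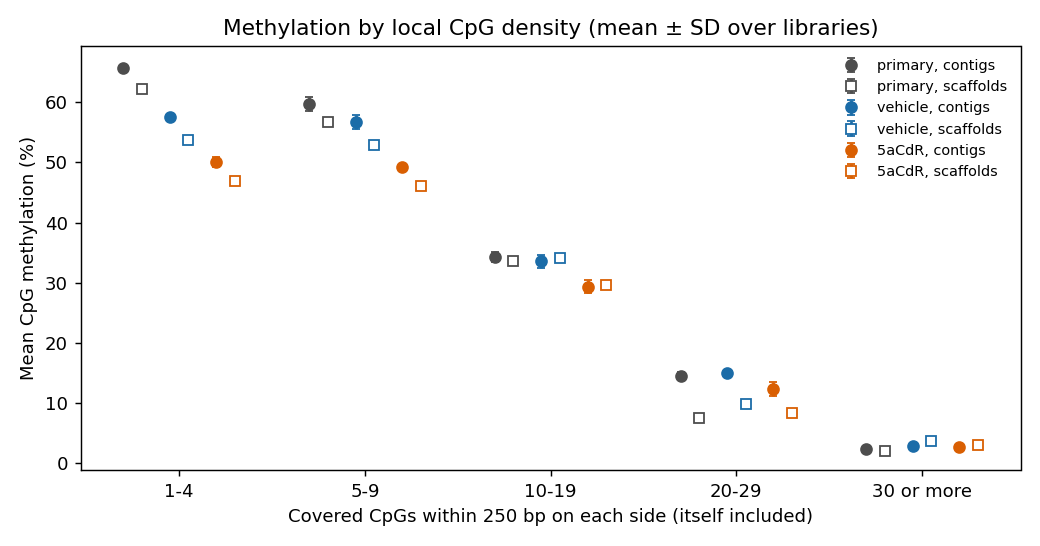
Mean CpG methylation in percent (y axis) by the number of covered CpGs within 250 bp on each side (x axis) for contigs (filled circles) and scaffolds (open squares) in primary, vehicle and 5aCdR libraries, with the SD over libraries as bars. Contigs lie above scaffolds in the classes 1 to 4, 5 to 9 and 20 to 29, and near them at 10 to 19 and at 30 or more.

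Single CpGs varied between libraries about as much as on scaffolds. For CpGs of intermediate group level, 20% to 80%, the median SD over vehicle libraries was 26.9 points on contigs and 27.5 on scaffolds, and over primary libraries it was 27.3 and 27.0. At that spread a single CpG has to differ widely to be called with 3 or 4 libraries a group. Over the 282 contigs with 3 or more members, the SD of the contig levels in primary cells was 35.2 points and the median SD within a contig was 10.9. Of these contigs 116 were below 20% in primary cells, 113 were from 20% to 80% and 53 were above 80%, with a median SD within the contig of 1.31, 23.9 and 9.52 points.

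5aCdR lowered the mean level of the contigs. Over the 4264 contig CpGs of this comparison the level was 33.1%, 32.6% and 31.8% in the 5aCdR libraries and 37.1%, 37.0%, 36.9% and 37.4% in the vehicle libraries. Every treated library was below every vehicle library. The treated mean of 32.5% ± 0.614 (SD, n = 3) and the vehicle mean of 37.1% ± 0.235 (SD, n = 4) gave a difference of -4.63 points or -12.5% of the vehicle level (exact permutation test, two-sided, p = 0.0286, the smallest that 4 against 3 libraries allow; adjusted over the 2 comparisons, 0.0286). With reads pooled over CpGs the difference was -7.13 points. Of the 282 contigs with 3 or more members, 181 had a lower mean with 5aCdR, with contig differences from -32.7 to 14.6 points.

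The mean was lower with 5aCdR in every size of contig, and the fall in points was smaller where CpGs were dense. Contigs whose last listed position was at most 1000 went from 52.3% to 45.1%, and those above 10000 from 36% to 31.1%. Members with 1 to 4 covered CpGs fell by 7.44 points, with 5 to 9 by 7.37, with 10 to 19 by 4.28 and with 20 to 29 by 2.58 (exact permutation p = 0.0357 each after adjustment over the 5 classes). Relative to the vehicle level these changes were -12.9%, -13.0%, -12.7% and -17.2%. Those with 30 or more covered CpGs were at 2.70% ± 0.171 (SD, n = 3) and 2.90% ± 0.359 (SD, n = 4), a difference short of the threshold (exact permutation p = 0.429). That class held 310 contig CpGs. Scaffold CpGs followed a similar course, with changes of -6.84, -6.73, -4.56, -1.50 and -0.511 points from the sparsest to the densest class. The last had an unadjusted exact permutation p of 0.0286.

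Set beside scaffold CpGs of the same density and primary level, the contigs' response to 5aCdR could not be told from theirs. Scaffold CpGs were weighted to the members' makeup over 35 strata of density and mean primary level, with no member left without a stratum. The contigs fell by 5.32 points, or -13.0% of the vehicle level, and the weighted scaffold CpGs by 5.18 points, or -12.8%. Contig minus matched scaffold was 0.484, -0.201 and 0.0566 points in the 5aCdR libraries and -0.0273, 0.142, 0.22 and 0.675 in the vehicle libraries, which overlap. The difference of the changes was -0.139 points (exact permutation p = 0.6, adjusted 0.8286), small beside an SD between libraries of 0.346 and 0.300.

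Few single CpGs were called for 5aCdR. With a quasi-binomial test on methylated and unmethylated reads, adjusted over all 155920 CpGs, 4 of 4264 contig CpGs passed an adjusted p of 0.05, all lower. That is 0.0938% of them, near the 0.0847% of all CpGs tested, of which 0.084% were lower and 0.000641% higher. The 4 had far more reads than a usual member, and 3 of them lay together on APMT01211032.1. The count was 0 without 5aCdR replicate 1, 2 or 3 in turn, 0 without CpGs of very high coverage and 0 by limma on the logit. An unadjusted p under 0.05 in the quasi-binomial test was found at 429 of 4264 contig CpGs and at 13675 of all 155920.

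The fourth was position 3658 of APMT01222814.1, the only member of its contig, with a median of 757 reads. Its level was 94.9%, 93.9%, 99.8% and 96.4% with vehicle and 73.8%, 82.3% and 83.5% with 5aCdR, so that the groups did not overlap. It stood at 91.6%, 99.5%, 88.8% and 81.7% in primary cells. The mean fell from 96.3% ± 2.57 (SD, n = 4) to 79.9% ± 5.26 (SD, n = 3) (quasi-binomial adjusted p = 0.0416). The call ended without 5aCdR replicate 1, 2 or 3 (adjusted p = 0.204, 0.215 and 0.193) or vehicle replicate 1, 3 or 4 (0.0880, 0.0657 and 0.124).

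Tiles pool the reads of neighbouring CpGs. Of 532 contig tiles of 1 kb with at least 3 CpGs, 7 passed the quasi-binomial test adjusted over all 18639 tiles, 6 lower and 1 higher. That is 1.32% of contig tiles, where 0.799% of all tiles passed, 0.783% lower and 0.0161% higher. The count was 4 without 5aCdR replicate 1, 5aCdR replicate 3 or vehicle replicate 1, and 3 without vehicle replicate 2. It was 2 without vehicle replicate 3 or vehicle replicate 4, and 4 of the 186 tiles that had at least 20 reads per CpG. No share over all tiles under the same setting stands beside these counts.

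Of the called contig tiles, 2 were lower and 1 higher by at least 25 points without overlap between groups. These are 0.376% and 0.188% of contig tiles, against 0.381% and 0.0107% of all tiles. The tile at 3001 to 4000 of APMT01218720.1, with 7 CpGs, was at 72.5%, 81.2%, 74.5% and 72.7% with vehicle and at 33.6%, 39.1% and 51.1% with 5aCdR. Its mean fell from 75.2% ± 4.10 (SD, n = 4) to 41.2% ± 8.95 (SD, n = 3) (quasi-binomial adjusted p = 0.0112), which became 0.0871 without 5aCdR replicate 1. All 3 treated libraries lay below the lowest vehicle library, and the primary libraries stood at 54.8%, 94.3%, 87.0% and 88.2%.

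The tile at 1 to 1000 of APMT01232241.1, with 5 CpGs, was at 85.3%, 89.4%, 100% and 96.1% with vehicle and at 61.4%, 75.2% and 62.6% with 5aCdR. Its mean fell from 92.7% ± 6.58 (SD, n = 4) to 66.4% ± 7.65 (SD, n = 3) (quasi-binomial adjusted p = 0.0316). This call rests on most of the libraries. It ended without 5aCdR replicate 1 or 3 (adjusted p = 0.132 and 0.0817) and without vehicle replicate 3 or 4 (0.0613 and 0.111).

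The 1 higher tile, ending at position 10000 of APMT01211248.1, with 5 CpGs, was at 0%, 0%, 1.65% and 0% with vehicle and at 33.7%, 19.8% and 68.9% with 5aCdR. The treated libraries all lay above the vehicle libraries but spread widely among themselves. Its CpGs were at 28.9% and 31.5% in primary replicates 1 and 4. The quasi-binomial adjusted p of 0.0297 became 0.0688 without 5aCdR replicate 3 and lay between 0.0613 and 0.128 without each vehicle library.

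A further 3 called tiles fell from near full methylation. APMT01230018.1 at 1 to 1000 was at 100% in all 4 vehicle libraries and at 76.1%, 85.5% and 66.1% with 5aCdR (quasi-binomial adjusted p = 0.0225). APMT01224051.1 at 1 to 1000 was at 100% with vehicle in all 4 libraries, and at 67.4%, 83.2% and 100% with 5aCdR, so its groups touched (quasi-binomial adjusted p = 0.0398). APMT01215879.1 at 4001 to 5000, with 5 CpGs in these libraries, was at 99.4% to 100% with vehicle and at 88.5%, 98.6% and 69.8% with 5aCdR (quasi-binomial adjusted p = 0.0402). These 3 tiles were named after their values were seen, and their calls held in 2, 1 and 1 of the 7 fits that left out a library. The remaining lower tile lay on APMT01211032.1 and is described with that contig.

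**Figure D3:**
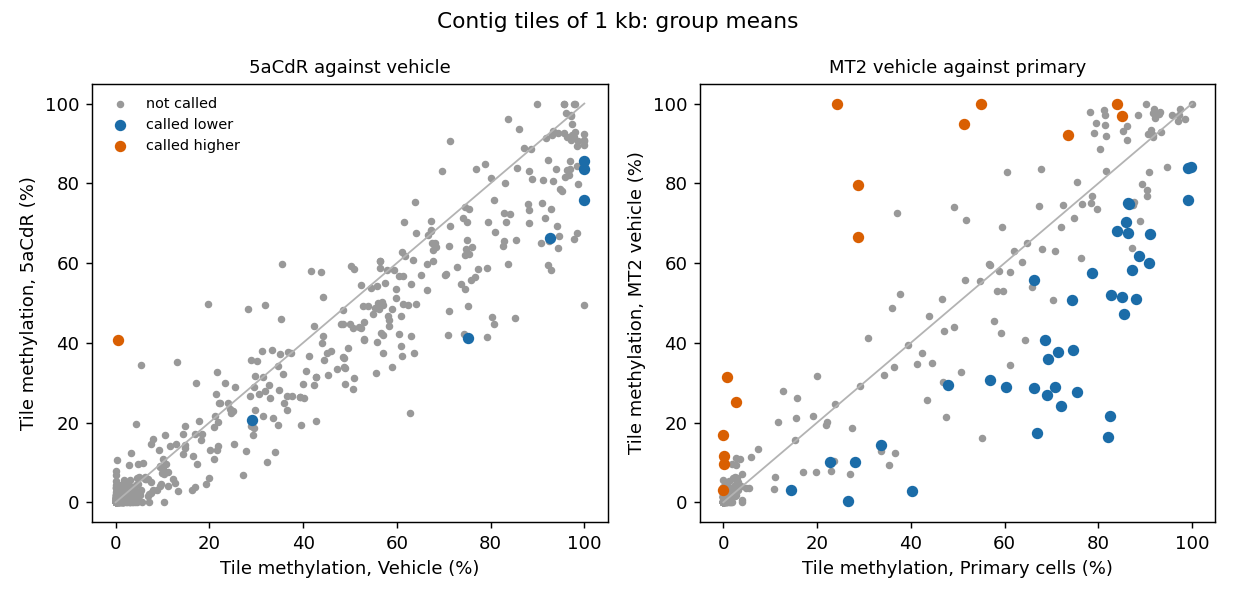
Group mean methylation of each 1 kb contig tile in percent, with 5aCdR (y axis) against vehicle (x axis) on the left and MT2 vehicle (y axis) against primary cells (x axis) on the right, with a grey line of equality. On the left 6 called tiles lie below the line and 1 above, and on the right 40 lie below and 14 above.

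The contig APMT01211032.1 held 16.8% to 26.3% of a library's reads on the 2310 contig CpGs common to all libraries, and 4.72% to 7.66% of its reads on all contig CpGs listed. It had 4 members at positions 5233, 5256, 5261 and 5302. The median depth of the deepest, 5261, was 15098 reads, where the median contig CpG had 50 and the deepest scaffold CpG 82287. All 4 members were partly methylated in every library and were lower after 5aCdR than with vehicle. At 5233 the level was 33.7%, 31.7%, 35.8% and 31.2% with vehicle and 25%, 23.4% and 22.9% with 5aCdR. At 5261 it was 26.2%, 23.2%, 25.9% and 23.6%, and 17.5%, 18.0% and 17.1%. At neither position did the vehicle and 5aCdR libraries overlap.

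Pooled over the tile of these CpGs, the level fell from 29.1% ± 2.13 (SD, n = 4) to 20.8% ± 0.797 (SD, n = 3) (quasi-binomial adjusted p = 0.000815), and the call held in 7 of 7 fits that left out a library. The tile was singled out for its depth after the values were seen. The single-CpG calls at 5233, 5256 and 5261 had adjusted p-values of 0.00147, 0.00145 and 0.00147 in the same test. They ended without any of the 5aCdR libraries, with adjusted p-values from 0.104 to 0.168. The primary libraries spanned 25.2% to 34.9% over the tile, which covers the vehicle values.

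**Figure D4:**
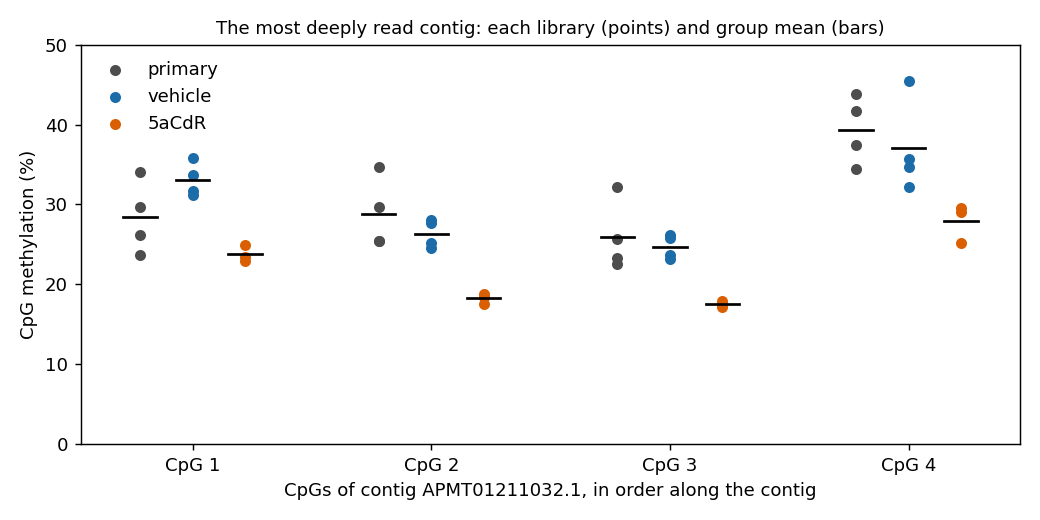
Methylation in percent (y axis) of the 4 CpGs of APMT01211032.1 in order along the contig (x axis), with a point for each library and a bar for the group mean. The 5aCdR points lie below all vehicle points at each CpG, while the primary points overlap the vehicle points.

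The share of reads on contigs differed between groups over the common CpGs, and neither difference passed the test without this contig. Of the reads on CpGs common to the 5aCdR and vehicle libraries, contigs took 3.00% ± 0.00247 (SD, n = 3) with 5aCdR and 2.89% ± 0.0439 (SD, n = 4) with vehicle (difference 0.104 points, exact permutation p = 0.0286). Of those common to vehicle and primary libraries they took 2.93% ± 0.0759 and 3.20% ± 0.0717 (SD, n = 4 each, difference -0.272 points, exact permutation p = 0.0286). Without APMT01211032.1 the differences were -0.0159 points (exact permutation p = 0.343), with 2.50% ± 0.0225 and 2.52% ± 0.0202, and -0.00679 points (exact permutation p = 0.8286), with 2.43% ± 0.0480 and 2.43% ± 0.0381. Leaving it out was chosen after its depth was seen. Over all CpGs listed in each library, this contig included, the differences were 0.00133 points (exact permutation p = 0.971) and -0.0563 points (exact permutation p = 0.0286). Over CpGs with at least 20 reads they were 0.188 and -0.438 points (exact permutation p = 0.0286 each).

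MT2 cells had a lower mean level on contigs than primary cells. Over the 2571 contig CpGs of this comparison the level was 39.9%, 40.3%, 39.8% and 40.2% in the vehicle libraries and 43.0%, 43.3%, 43.2% and 43.6% in the primary libraries, without overlap. The means were 40.04% ± 0.264 and 43.3% ± 0.248 (SD, n = 4 each), a difference of -3.24 points (exact permutation test, two-sided, p = 0.0286, the smallest that 4 against 4 libraries allow; adjusted over the 2 comparisons, 0.0286). With reads pooled over CpGs, so that deep CpGs count for more, the difference was -2.02 points, short of the threshold (exact permutation p = 0.0857), and it was -4.22 points without APMT01211032.1 (exact permutation p = 0.0286).

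The mean is made of differences in both directions. In the 11-library set members below 20% in primary cells went from 2.31% to 6.14% in MT2, members above 80% from 92.4% to 79.2%, and those between from 53.1% to 49.6%. These classes were cut on the primary level, so part of each shift is fixed by the choice, and scaffold CpGs cut in the same way went from 2.51% to 7.36%, from 92.3% to 79.3% and from 53.2% to 47.4%. Of the 282 contigs with 3 or more members, 135 were lower in MT2 and the contig differences ran from -60.6 to 75 points with a median of 0.

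The difference between MT2 and primary cells was largest among sparse CpGs. Members with 1 to 4 covered CpGs went from 65.7% to 57.5%, a change of -8.20 points, and members with 5 to 9 from 59.7% to 56.6%, a change of -3.10 points. Both had an exact permutation p of 0.0286 and of 0.0714 after adjustment over the 5 density classes, the smallest adjusted value that 2 such classes allow. Members with 10 to 19, 20 to 29 and 30 or more covered CpGs differed by -0.652, 0.530 and 0.417 points, with unadjusted exact permutation p-values of 0.371, 0.229 and 0.114.

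Contigs with a last position up to 1000 went from 57.7% ± 0.605 to 52.3% ± 0.421 (SD, n = 4 each), a change of -5.44 points. Those ending between 1000 and 10000 changed by -3.13, -3.81 and -4.17 points in 3 classes of rising size, all with an unadjusted exact permutation p of 0.0286. The 439 members of contigs reaching beyond 10000 were at 36% ± 0.894 in MT2 and 36.3% ± 0.299 in primary cells (SD, n = 4 each), a change of -0.365 points with an exact permutation p of 0.429. Their median density was 11, the highest of the size classes.

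Beside scaffold CpGs matched on density and primary level, the mean change of the contigs in MT2 could not be told from theirs, though other settings moved this. Contigs changed by -3.24 points and matched scaffold CpGs by -3.30, a difference of 0.0619 points (exact permutation p = 0.8286). The strata use the primary level, so the sets are nearly equal in primary cells by construction. With at least 20 reads, the contigs fell less than matched scaffold CpGs by 1.23 points, and with each contig weighted equally by 0.865 points (exact permutation p = 0.0286 each).

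Within classes, the matched comparison had opposite signs by density, in tests added after the data were examined. Contig CpGs of the densest class differed by 0.417 points where matched scaffold CpGs differed by 1.46 (difference -1.04, exact permutation p = 0.0286, adjusted 0.0952). Those with 1 to 4 covered CpGs changed by -8.20 points where matched scaffold CpGs changed by -9.15 (difference 0.945, exact permutation p = 0.0571, adjusted 0.0952). The contigs reaching beyond 10000 changed by -0.365 points where matched scaffold CpGs changed by -2.67 (difference 2.30, exact permutation p = 0.0286, adjusted over the 5 size classes 0.0714). The next smaller class, ending between 5000 and 10000, differed the other way, with -4.17 points where matched scaffold CpGs changed by -2.78 (difference -1.38, exact permutation p = 0.0286, adjusted 0.0714). None of the 10 class differences passed after adjustment, and their smallest adjusted values were 0.0952 by density and 0.0714 by size.

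Single contig CpGs were called in this comparison at the rate of the whole table. The quasi-binomial test adjusted over all 91277 CpGs called 211 of 2571 contig CpGs, or 8.21%, where 8.55% of all CpGs were called, with 144 lower and 67 higher in MT2. Those are 5.60% and 2.61%, against 5.81% and 2.74% of all CpGs. The count was 137 without vehicle replicate 1, 129 without primary replicate 4 and 133 by limma on the logit, with no share over all CpGs under these settings. The called CpGs lay on 163 contigs. Among these calls, 108 CpGs that differed by 25 points or more without overlap between groups were lower and 44 higher, which is 4.2% and 1.71% of contig CpGs against 4.32% and 1.74% of all CpGs.

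Some of these CpGs were read as mostly methylated in primary cells and unmethylated in the vehicle libraries, or the reverse. They were chosen for the largest differences among the called CpGs. What gave these differences was not tested. Position 2050 of APMT01219198.1 was at 100% in all 4 primary libraries and at 0% in all 4 vehicle libraries, with a median of 21 reads (quasi-binomial adjusted p = 0.000380). Position 20287 of APMT01207187.1 was at 100%, 88.2%, 100% and 100% in primary cells and at 0% in every vehicle library (quasi-binomial adjusted p = 0.000116). Position 4338 of APMT01218314.1 was at 100%, 64.8%, 100% and 100% and at 0% in every vehicle library (quasi-binomial adjusted p = 0.000493), and its 5aCdR libraries were at 21.6%, 0% and 34.7%. In the opposite direction, position 2444 of APMT01221075.1 was at 0%, 8.59%, 24.7% and 4.95% in primary cells and at 100% in every vehicle library (quasi-binomial adjusted p = 0.000136).

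The 5aCdR libraries were at 97.8%, 54.3% and 52.3% at that CpG. Position 4430 of APMT01215879.1 was at 18.9%, 0%, 26.1% and 0% in primary cells and at 100% in every vehicle library (quasi-binomial adjusted p = 0.000567). Position 1230 of APMT01210914.1 was at 3.23%, 0%, 0% and 55.7% in primary cells and at 100% in every vehicle library. Its quasi-binomial adjusted p of 0.0130 became 0.0504 without vehicle replicate 1.

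A larger share of tiles than of single CpGs was called. Of 290 contig tiles 54, or 18.6%, were called by the quasi-binomial test adjusted over all 10178 tiles, where 20.8% of all tiles were called. Lower tiles numbered 40, or 13.8% against 12.3% of all tiles, and higher tiles 14, or 4.83% against 8.55%. The 54 tiles lay on 54 contigs. The count was 24 of the 91 tiles that had at least 20 reads per CpG, and 21 by limma on the logit.

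Lower tiles that differed by 25 points or more without overlap numbered 20, or 6.90% of contig tiles against 6.68% of all tiles. The 10 with the largest fall dropped by 65.7 to 37.4 points. The largest, at 1 to 1000 of APMT01214371.1, was at 93.9%, 62.9%, 75.4% and 96.2% in primary cells, at 31.1%, 20.3%, 9.82% and 4.42% with vehicle, and at 25.6%, 11.5% and 38.8% with 5aCdR. Its mean fell from 82.1% ± 15.8 to 16.4% ± 11.8 (SD, n = 4 each; quasi-binomial adjusted p = 0.00175). Primary and MT2 libraries stood well apart, and the 5aCdR libraries lay across the vehicle range or just above it.

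The tile at 4001 to 5000 of APMT01212004.1 was at 90.1%, 89.0%, 59.7% and 91.2% in primary cells and at 0.943%, 31.3%, 34.4% and 20.2% with vehicle (quasi-binomial adjusted p = 0.00141). The tile at 11001 to 12000 of APMT01211527.1 was at 79.1%, 63.5%, 56.7% and 68.8% and at 10.1%, 19.2%, 13.3% and 27.1% (quasi-binomial adjusted p = 0.000381). The tightest groups were those of APMT01236192.1 at 1001 to 2000, with 4 CpGs and a median of 604.5 reads. It was at 66.8%, 60.9%, 72.6% and 64.6% in primary cells, at 27.1%, 23.1%, 32.3% and 32.5% with vehicle and at 26.8%, 24.7% and 28.5% with 5aCdR (quasi-binomial adjusted p = 4.25e-05). These 5aCdR values, pooled over reads, lay within the vehicle range. Averaged instead over the 4 members of the contig, the level was 28.6% with 5aCdR and 37.3% with vehicle, without overlap.

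The tile at 1 to 1000 of APMT01220731.1 fell from partial methylation to near none, with 51.7%, 31.7%, 27.3% and 50.3% in primary cells and 0%, 2.78%, 0% and 8.63% with vehicle (quasi-binomial adjusted p = 0.00227). The remaining 5 of these 10 tiles fell by 38.3 to 47.9 points and lay on APMT01228477.1, APMT01208682.1, APMT01231684.1, APMT01229162.1 and APMT01208717.1. The calls at 2 of these 5 depended on single libraries. APMT01228477.1 at 1001 to 2000 was at 50.8%, 78.2%, 78.5% and 80.4% in primary cells and at 2.46%, 26.7%, 32.5% and 34.7% with vehicle (quasi-binomial adjusted p = 0.00915), and its adjusted p was 0.0521 without vehicle replicate 1. APMT01229162.1 at 2001 to 3000 was at 63.7%, 83.3%, 48.6% and 87.7% and at 8.33%, 41.5%, 21.2% and 44.9% (adjusted p = 0.0174), which became 0.0781 without vehicle replicate 3 and 0.0683 without primary replicate 4 in the same quasi-binomial test.

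Higher tiles that passed the same rule numbered 6, or 2.07% of contig tiles against 2.85% of all tiles. The largest rise was at 4001 to 5000 of APMT01215879.1, which was at 17.3%, 54.3%, 25.3% and 0.441% in primary cells and at 100%, 99.2%, 100% and 100% with vehicle (quasi-binomial adjusted p = 6.23e-05). Treated wells were at 86.2%, 99.1% and 70.6% there, on the 3 CpGs of this comparison. The primary libraries were far apart from each other, and the vehicle libraries were not.

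The tile at 1 to 1000 of APMT01219077.1 was at 58.1%, 44.3%, 50.4% and 66.6% in primary cells and at 100% in all 4 vehicle libraries (quasi-binomial adjusted p = 0.000154). The tile at 1001 to 2000 of APMT01235167.1 was at 29.7%, 26.6%, 26.1% and 32.2% in primary cells and at 60.2%, 77.0%, 55.9% and 72.9% with vehicle (quasi-binomial adjusted p = 0.00127). The tile at 5001 to 6000 of APMT01216196.1 was at 0%, 0%, 0% and 3.34% and at 27.6%, 8.66%, 60.0% and 29.6% (quasi-binomial adjusted p = 0.00774). That last rise differed widely between wells of 1 stock.

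The tile at 1 to 1000 of APMT01235871.1 was at 35.8%, 61.6%, 70.9% and 37.2% in primary cells and at 93.1%, 86.4%, 100% and 100% with vehicle (quasi-binomial adjusted p = 0.00205). The tile at 1001 to 2000 of APMT01210914.1, with 6 CpGs, was at 29.4%, 1.18%, 17.6% and 66.4% in primary cells and at 76.8%, 69.7%, 89.6% and 82.3% with vehicle (quasi-binomial adjusted p = 0.0282). Its groups nearly touched. Its adjusted p rose to between 0.0506 and 0.0719 without vehicle replicate 1, 3 or 4 or primary replicate 1 or 3.

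The contigs with the most members showed the range of states. APMT01208388.1, with 20 members at high density, was at 3.30% ± 2.99 in primary cells (SD, n = 4), 4.71% ± 0.572 with vehicle (SD, n = 4) and 5.57% ± 0.670 with 5aCdR (SD, n = 3). APMT01208565.1, with 15 members, and APMT01215958.1, with 13, stayed at 0% to 2.14% in every library. The means of these 3 contigs were low in all groups, but single CpGs of APMT01208388.1 ran from 0% to 93.75% with vehicle. APMT01221691.1, tied with 13 members, was at 15.4%, 7.69%, 7.69% and 10.3% in primary cells, at 33.9%, 25.7%, 25.3% and 46.2% with vehicle and at 29.8%, 25.6% and 16.4% with 5aCdR. Its vehicle libraries all lay above its primary libraries.

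The means of APMT01237528.1 and APMT01235590.1 were high in primary cells and lower in MT2. APMT01237528.1, with 19 members between positions 212 and 946, was at 90.4%, 88.2%, 85.4% and 82.2% in primary cells, at 74.9%, 71.5%, 77.0% and 71.1% with vehicle and at 66.3%, 66.1% and 65.3% with 5aCdR. The 3 groups did not overlap there. APMT01235590.1, with 15 members between 364 and 981, was at 93.5%, 88.0%, 81.1% and 83.2%, at 60.2%, 70.7%, 57.0% and 60.7%, and at 54.4%, 65.0% and 43.7% in the same groups. Its vehicle and 5aCdR libraries overlapped, and both lay below all primary libraries.

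The deepest members other than those of APMT01211032.1 differed in their patterns. Position 4884 of APMT01215362.1, with a median of 2662 reads and no other member on its contig, was at 47.4%, 41.4%, 44.7% and 34.3% in primary cells and at 6.30%, 9.16%, 6.68% and 8.43% with vehicle. It was at 7.37%, 4.51% and 7.06% with 5aCdR, within or near the vehicle range. Position 4155 of APMT01217654.1, in a dense stretch with a median of 1129 reads, stayed at or below 2.30% in all libraries. Position 1647 of APMT01216811.1 was lower from group to group, from 75.8% ± 8.43 (SD, n = 4) to 55.8% ± 3.71 (SD, n = 4) and 46.8% ± 0.930 (SD, n = 3). These were chosen for depth, and their values are given as a description.

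Read share, tested per contig, changed at few contigs. Reads were summed per contig and per 100 kb of scaffold and compared with edgeR's quasi-likelihood test, adjusted over all units. For 5aCdR against vehicle 0 of 1397 contigs passed, as 0% of all 19102 units did. An unadjusted p under 0.05 in this test was found at 144 contigs and at 1389 of the 17705 other units. DESeq2 called 9 contigs. For MT2 against primary cells 3 of 1008 contigs passed, or 0.298%, where 0.169% of all 16554 units did, and DESeq2 called 7. The DESeq2 calls were counted on contigs only, so no share over all units stands beside them.

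APMT01216783.1 took 60.3, 111, 45.4 and 42.0 reads per 1000000 reads in primary cells and 6.37, 7.91, 12 and 10.7 with vehicle, over 3 CpGs (log2 fold change -2.79, edgeR quasi-likelihood test, adjusted p = 0.000261). APMT01211032.1 took 7739, 7580, 7680 and 8357 reads per 1000000 reads in primary cells and 5573, 4627, 4810 and 5461 with vehicle (log2 fold change -0.59, edgeR quasi-likelihood test, adjusted p = 0.00163). APMT01235774.1, with 1 CpG and named after its values were seen, took 59.2, 50.3, 48.0 and 20.8 in primary cells and 84.9, 121, 121 and 139 with vehicle (log2 fold change 1.41, edgeR quasi-likelihood test, adjusted p = 0.0292). None of the 3 contigs had overlapping groups. After 5aCdR the share of APMT01211032.1 was higher than with vehicle, at 5180, 5185 and 4779 against 4226, 3406, 3530 and 4129 reads per 1000000 reads over the CpGs common to those libraries (log2 fold change 0.41), and did not pass the edgeR test (adjusted p = 0.149).

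**Figure D5:**
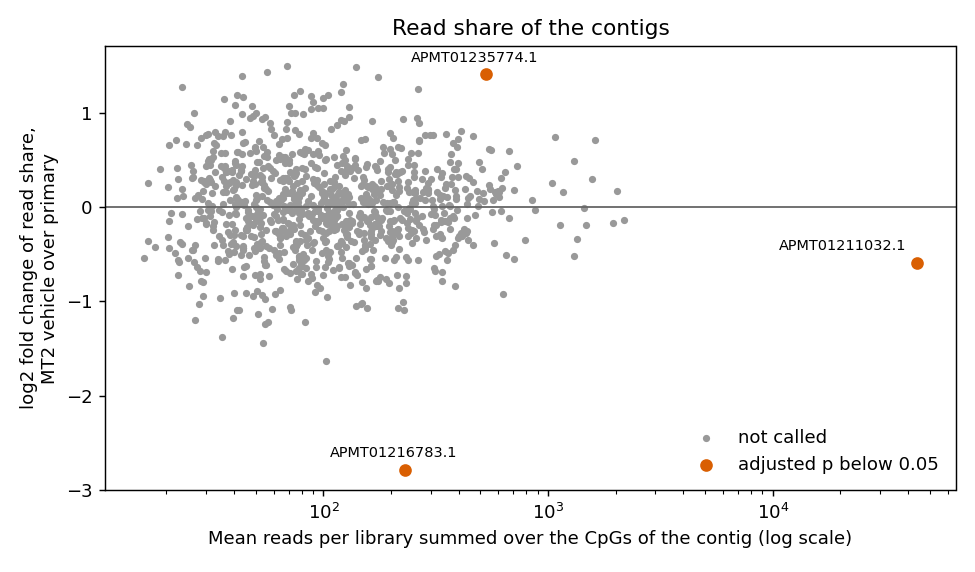
Log2 fold change of read share, MT2 vehicle over primary cells (y axis), against the mean reads per library of each contig (x axis, log scale), with each of the 1008 contigs as a point. The 3 named points passed an adjusted p of 0.05 in edgeR's quasi-likelihood test, and APMT01211032.1 lies alone at the right with 43790 reads per library.

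Whole contigs were listed in 1 kind of cell only in a few cases. Of the 4449 contigs, 1670 were listed in all 11 libraries, 4 in all 7 MT2 libraries and no primary library, and 6 in all 4 primary libraries and no MT2 library. Among 2214 scaffolds these numbers were 990, 3 and 6. APMT01230392.1 had 1 CpG with 710 to 1213 reads in each primary library, at a level of 72.2%, and was listed in no MT2 library, where fewer than 10 reads on a strand leave a position out. The other contigs listed only in primary cells had at most 253 reads in a library, and those listed only in MT2 at most 223.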

How the data were processed

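Reduced representation bisulfite libraries of 4 vehicle-treated and 3 5aCdR-treated MT2 wells and 4 primary samples were analysed. The submitters' processing notes name Bismark 0.22.1 and Bowtie2, methylKit 1.10.0 under R 3.6.1, Trim Galore 0.5.0 and bcl2fastq 2.20.0.42. Settings, removal of PCR duplicates and the genome build are not given in the sources used here. No sequence or gene annotation is therefore given, and positions are those of the files. The deposited coverage, per the file headers, counts reads on 1 strand of a CpG and starts at a count of 10. The deposited methylation is the percent of those reads with C or T, per the file headers.

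Methylated reads were coverage times the percent of C, rounded, and reverse positions were moved by 1 base and summed with the forward ones, so a strand under 10 reads is missing from the sum. Levels per library are means over CpGs. Groups were compared with exact two-sided permutation tests over libraries. A quasi-binomial logistic model tested single CpGs and 1000 bp tiles of 3 or more CpGs, its dispersion moderated by limma 3.58.1 and kept at 1 or above, with Benjamini-Hochberg adjustment over contigs and scaffolds together. Read shares were tested with edgeR 4.0.16, with DESeq2 1.42.0 as an alternative. The tests were tried on simulated data. Python 3.11.15 and R 4.3.3 were used. Total reads over CpGs were 17834610 to 46148127 per library. No pairing by replicate number was seen: deviations of same-numbered libraries from their group means correlated at -0.0102 to 0.00381. Single CpGs vary widely between libraries, so these correlations cannot decide whether same-numbered libraries were handled together.

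Named regions were, per comparison, up to 10 tiles and 10 CpGs each way with the largest change among those called (adjusted p under 0.05) that also differed by 25 points or more without overlap between groups, of which the 3 largest CpGs each way are given by position; the 5 contigs with most members; the 5 deepest members, 1 per contig; and called contigs of 3 or more CpGs by read share. The members, lists and rules were chosen with earlier results of these data known. Alternatives were other read minimums, filters, tests, weights and strata, a replicate block and leaving out each library. Leaving out APMT01211032.1 and the tests within density and size classes were added after the data were examined.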

Additional observations from a re-analysis of the deposited data

Results flagged for a closer look

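In 11 of 84 groups of 4 libraries examined, 1 library lay far from the other 3 relative to the range of the group, where chance gives about 1 in 20. In 7 of the 11 the other 3 libraries were tied, mostly at 0% or 100%, where that rate does not apply, so the number of flags is not set against it. All were levels of single named regions, and none was a mean over all contig CpGs or a read share. In primary cells the tile at 4001 of APMT01212004.1 had a library at 59.7% with the nearest other at 89.0%, and the tile at 1001 of APMT01228477.1 had one at 50.8% with the nearest at 78.2%. Among single CpGs in primary cells, position 4338 of APMT01218314.1 had a library at 64.8% and position 20287 of APMT01207187.1 had one at 88.2%, with the others at 100%. Position 1230 of APMT01210914.1 had a primary library at 55.7% with the nearest at 3.23%. The call at that position ended without vehicle replicate 1 (adjusted p = 0.0504, quasi-binomial test). The other flags were small in points: the tile at 5001 of APMT01216196.1 with a primary library at 3.34% and the others at 0%, position 4155 of APMT01217654.1 with a primary library at 2.30%, and the vehicle groups of the tiles at 4001 of APMT01215879.1 (99.2%, the others at 100%) and ending at 10000 of APMT01211248.1 (1.65%, the others at 0%) and of the contigs APMT01208388.1 (3.86%, the others at 5.00%) and APMT01215958.1 (1.21%, the others at 0%).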

How the results depend on the processing

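The excess of the contig level over density-weighted scaffold CpGs kept its direction and passed its test under all 14 alternatives tried, and was 2.46 to 2.59 points when each library was left out. The log2 depth ratio was 0.00527 with at least 20 reads and 0.0614 to 0.0742 with a library left out. The fall with 5aCdR was -4.92 to -4.31 points and the fall in MT2 -3.34 to -3.13 points with each library left out. Fewer than 4 against 3 libraries cannot reach an exact permutation p of 0.05. The MT2 fall was -2.02 points with reads pooled. The replicate block, a test over differences of same-numbered libraries whose smallest p is 0.25 or 0.125, gave -4.52 and -3.24 points for these falls, 0.116 and -0.272 points for the read shares, 0.00183 points for the 5aCdR change beside matched scaffold CpGs, and 3 called contig tiles for 5aCdR.

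The 5aCdR change beside matched scaffold CpGs was 0.0708 points with at least 20 reads, -0.613 with contigs weighted equally, -0.371 with strata of density alone, and -0.325 to 0.0182 with a library left out, none past the threshold. The MT2 change beside matched scaffold CpGs was 1.23 points with at least 20 reads, 0.865 with contigs weighted equally, -0.0218 without CpGs of very high coverage, -0.456 with strata of density alone, -0.385 and -0.153 with strata from 2 primary libraries compared with the other 2, and -0.0864 to 0.158 with a library left out. Apart from the 2 that passed, these differences took both signs, so their direction is not determined. The 2 that passed, at 1.23 and 0.865 points for MT2, were both positive, and their cause was not tested. The 5aCdR difference in read share was 0.00133 points over all CpGs listed, -0.00108 without CpGs of very high coverage, -0.0159 without APMT01211032.1, and 0.0858 to 0.116 with a library left out. The MT2 difference was -0.0563 over all CpGs listed, which passed its test, 0.0212 without CpGs of very high coverage, -0.00679 without APMT01211032.1, and -0.292 to -0.237 with a library left out.

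The counts that follow are of contigs alone, with no share over all CpGs, tiles or units under the same setting. Contig CpGs called for 5aCdR numbered 0 without CpGs of very high coverage and 0 by limma on the logit. They numbered 11 of 2310 tested with the dispersion from all 3 groups, and 0 to 5 with a library left out. Contig tiles called for 5aCdR numbered 4 of 186 tested with at least 20 reads, 4 without CpGs of very high coverage, 1 by limma on the logit, and 2 to 6 with a library left out. Contig CpGs called for MT2 numbered 133 by limma and 129 to 166 with a library left out, and tiles 24 of 91 tested with at least 20 reads, 21 by limma and 41 to 48. Contigs called by read share numbered 9 by DESeq2 for 5aCdR, with 0 in each fit without a library, and for MT2 7 by DESeq2, 5 over all listed CpGs with edgeR's filter on low counts, 6 with no filter, 1 without CpGs of very high coverage, and 2 to 3 with a library left out. Over 29 named regions, 296 of 346 values under alternatives stayed called, 50 fell short of the threshold, and 0 changed direction. These regions were picked from the same data and had no overlap between groups. Leaving out a library therefore could not reverse their direction, and the last count is no measure of robustness.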
